A study of Mus musculus with 8 samples.

Results

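Cells balance their cholesterol by making it, taking it up and sending it out, and 8 genes of that balance were followed here: Apoe, Abca1, Abcg1, Nr1h2, Srebf2, Hmgcs1, Sqle and Insig1. They were found by gene symbol, 8 of 53700 genes in the count table, and all 8 passed the filter on low counts that left 12132 genes for testing. The set was drawn up with the measured difference between stem cells and progenitors in view, so the levels of these genes in the 2 cell types are given as a description, with no test.

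Sorted mouse marrow cells were pooled into 8 libraries of polyadenylated RNA, 1 for each cell type (2) under each genotype of the donor (4). Haematopoietic stem cells (HSC) were sorted as CD150-positive and CD48-negative cells, and multipotent progenitors (MPP) as CD48-positive and CD150-negative cells, both within the LSK gate (lineage-negative, Sca-1-positive, Kit-positive). Donor marrow was Nfat5 +/+ Vav-Cre (WT), Nfat5 fl/fl Vav-Cre (N5), deficient in the type I interferon receptor chain IFNAR1 (IFNAR), or combined Nfat5 fl/fl Vav-Cre with the receptor deficiency (DKO). Vav-Cre, carried by WT, N5 and DKO by their labels, acts in blood-forming cells. All donor marrow carried CD45.2 and had been transplanted into irradiated wild-type CD45.1 mice, from which CD45.2-positive cells were sorted 13 weeks later. Each library pooled the same number of cells from each of 5 recipients, and the animals' age was not given. Nfat5 encodes a transcription factor of the response to osmotic stress.

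As background, cholesterol synthesis runs from acetyl-CoA through HMG-CoA and squalene, and is switched on by SREBP transcription factors when membranes hold little sterol. When sterol is plentiful, INSIG proteins hold SREBP in the endoplasmic reticulum, and oxysterols activate the liver X receptors (LXR), which switch on the efflux pumps ABCA1 and ABCG1 and, in macrophages, apolipoprotein E. Apolipoprotein E on the cell surface and in lipoproteins accepts that cholesterol. In mouse bone marrow, these efflux pumps and apolipoprotein E are known to restrain the proliferation of stem and progenitor cells by lowering membrane cholesterol.

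Sequences upstream of the genes are shown because Apoe, the gene whose level separated the cell types, shares a short run of letters with 2 of the genes that answer to sterol. RefSeq's table of windows on GRCm38.p6 (250 bases before to 50 after each annotated start) held 6 of the 8 genes in 8 windows, 3 of them for Apoe. Abcg1 and Sqle were not in it. Printed here, 5′ to 3′ along the gene's strand, are the bases from 250 to 91 before the start, with the SRE core TCACCCCA or the E-box CACGTG in capitals. They cover chr7:19699279-19699438 on the minus strand for Apoe (the outermost of its 3 starts), chr13:119690101-119690260 on the plus strand for Hmgcs1, chr15:82147019-82147178 on the plus strand for Srebf2, chr5:28071162-28071321 on the plus strand for Insig1 and chr4:53159986-53160145 on the minus strand for Abca1.
Apoe: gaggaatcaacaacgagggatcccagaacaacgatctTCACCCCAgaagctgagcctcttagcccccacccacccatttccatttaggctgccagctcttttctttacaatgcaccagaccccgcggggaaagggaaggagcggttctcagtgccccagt
Hmgcs1: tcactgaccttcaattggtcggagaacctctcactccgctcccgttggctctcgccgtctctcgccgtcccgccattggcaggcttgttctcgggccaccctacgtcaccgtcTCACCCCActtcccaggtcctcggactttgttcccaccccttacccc
Srebf2: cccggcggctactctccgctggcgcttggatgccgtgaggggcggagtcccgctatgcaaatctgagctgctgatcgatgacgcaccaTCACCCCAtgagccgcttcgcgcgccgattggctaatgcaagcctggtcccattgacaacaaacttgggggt
Insig1: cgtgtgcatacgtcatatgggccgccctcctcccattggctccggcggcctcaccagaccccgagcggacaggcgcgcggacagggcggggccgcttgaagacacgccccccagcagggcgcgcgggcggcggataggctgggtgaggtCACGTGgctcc
Abca1: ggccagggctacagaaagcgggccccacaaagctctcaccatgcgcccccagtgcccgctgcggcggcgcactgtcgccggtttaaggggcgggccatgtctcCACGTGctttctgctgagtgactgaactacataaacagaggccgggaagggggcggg

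The SRE core, the letters that SREBP is known to bind in sterol-regulated promoters, lay 213 bases before the start of Apoe, 137 before that of Hmgcs1 and 162 before that of Srebf2. On either strand it was found in 3 of the 8 windows, and in 511 of all 32851 windows of 300 bases (1.56%). The E-box CACGTG lay 101 bases before the start of Insig1 and 147 before that of Abca1, and 7.15% of all windows held it. CCAAT was found in 3 of the 8 windows and 37.4% of all, and the GC box GGGCGG in 4 of the 8 and 35.7% of all. An LXR repeat, 2 copies of AGGTCA with 4 bases between them, was in 0 of the 8 windows and in 5 of all 32851 (0.0152%). The marked SRE and E-box letters overlapped no other motif searched. These matches describe letters in a window and were not tied to binding.

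The libraries held 28871693 to 47205950 counts, a 1.64-fold range, and levels are given as CPM, the share of a library's counts after TMM scaling, always in the order WT, N5, IFNAR and DKO. The gates matched their markers: Slamf1, which encodes CD150, was at 52.2 to 90.0 CPM in HSC and at most 0.0275 CPM in MPP, and Cd48 at 0 to 6.36 CPM in HSC and 202 to 284 CPM in MPP. Neither targeted gene had a transcript level that tracked the labels. Nfat5 was at 33.2, 22.7, 3.12 and 35.5 CPM in HSC and 5.59, 7.69, 0.193 and 11.5 CPM in MPP. Ifnar1 was at 122, 126, 113 and 35.1 CPM in HSC and 37.2, 87.9, 43.8 and 125 CPM in MPP. Genotypes are therefore names of libraries here, and each direction given for them rests on labels that these counts, summed over whole genes, did not follow. No combination of cell type and genotype was replicated, so every p-value measures only the spread between these libraries, and HSC and MPP means are over 4 libraries of different genotype labels.

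Apoe, the lipid carrier, was the gene that set HSC apart. Its level was 1148, 1336, 1183 and 1286 CPM in HSC and 129, 57.7, 128 and 127 CPM in MPP. The lowest HSC library lay far above the highest MPP library, and within HSC the highest was 1.16 times the lowest. The means were 1238 ± 87.8 CPM in HSC and 110 ± 35.2 CPM in MPP (SD, n = 4 libraries), an 11.2-fold difference, and the mean log2 difference over the 4 genotype labels was 3.56 ± 0.65. Apoe took 0.114% to 0.133% of all counts in HSC and 0.00569% to 0.0128% in MPP, from 39607 to 60912 counts and 1644 to 4636 counts. The error of counting reads was thus small beside these gaps. Reads were amplified without molecular identifiers, so the error of sampling molecules is not covered. Each library is a bulk sample, in which fewer cells with the transcript and less RNA per cell cannot be told apart.

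The 8 genes did not share that pattern. All 4 HSC libraries lay above all 4 MPP libraries in 1 of 8, Apoe, a state found in 4.73% of the 12132 genes, and all 4 MPP libraries above all 4 HSC libraries in 0 of 8, against 5.65%. Pairing the libraries by genotype label, HSC was higher in 4 of 4 pairs for 1 of 8 (Apoe; 9.81% of all genes) and lower in 4 of 4 for 1 of 8 (Hmgcs1; 12% of all genes). Because this contrast chose the genes, nothing is read from these counts. In the same contrast edgeR's quasi-likelihood test called 2 of 12132 genes (0.0165%), while DESeq2 called 1877. The plot of levels by library shows the separation of Apoe and the overlap of the other 7.

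**Figure D1:**
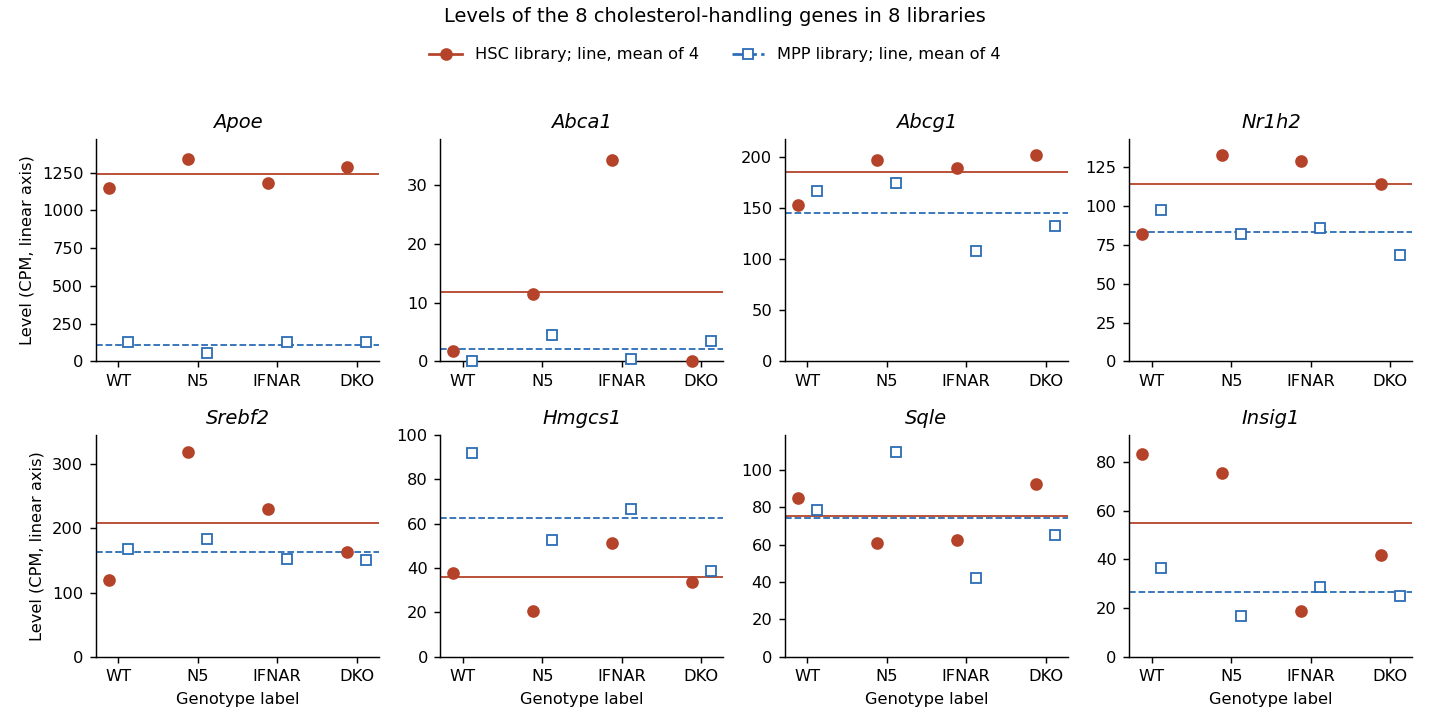
Level of each of the 8 genes in each library (vertical axis, CPM on a linear scale that starts at 0 and differs between panels; horizontal axis, genotype label; filled circles HSC, open squares MPP; lines, means of 4 libraries). Apoe lies between 1148 and 1336 CPM in HSC and between 57.7 and 129 CPM in MPP, and in the other 7 panels the cell types overlap.

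The efflux transporters differed from Apoe and from each other. Abca1, the pump that loads cholesterol onto poor lipoprotein particles, was at 1.80, 11.4, 34.3 and 0 CPM in HSC and 0, 4.42, 0.385 and 3.37 CPM in MPP. In counts this was 62, 350, 1343 and 0 in HSC and 0, 126, 14 and 119 in MPP. A library with 0 counts stood in each cell type, where 3 counts would be 0.0633 CPM in the HSC library labelled DKO and 0.0993 CPM in the MPP library labelled WT. Abca1 was thus near absent in some libraries and present in others of the same gate, and its mean log2 difference of 1.69 ± 5.48 was smaller than its own spread. Abcg1, the pump that passes cholesterol to mature lipoprotein particles, was far steadier, at 153, 197, 189 and 202 CPM in HSC and 167, 175, 108 and 132 CPM in MPP. Its ranges overlapped, HSC was higher under 3 of 4 labels, and the mean log2 difference was 0.37 ± 0.42.

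Nr1h2 encodes LXR-beta, the receptor of the oxysterol signal. It was at 82.1, 133, 129 and 114 CPM in HSC and 97.9, 81.9, 86.0 and 68.7 CPM in MPP, higher in HSC under N5, IFNAR and DKO and lower under WT. The mean log2 difference was 0.44 ± 0.47. Its relative Nr1h3, which encodes LXR-alpha, was at 20.5 CPM in the HSC library labelled N5, at 10.9 CPM in the MPP library labelled IFNAR and at 0 counts in the other 6 libraries. Per kilobase of exon, Nr1h3 averaged 2.04 ± 4.07 CPM per kb in HSC and Nr1h2 34.2 ± 6.92 CPM per kb (SD, n = 4).

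Srebf2, which encodes the SREBP most tied to cholesterol synthesis, was at 120, 320, 230 and 163 CPM in HSC and 168, 184, 152 and 151 CPM in MPP. The HSC libraries spread 2.66-fold from lowest to highest and the MPP libraries 1.21-fold, and the HSC range enclosed the whole MPP range. Insig1, the sterol-sensing brake on SREBP and itself an SREBP target, was at 83.4, 75.3, 18.9 and 41.7 CPM in HSC and 36.6, 16.6, 28.5 and 24.9 CPM in MPP. HSC was higher under WT, N5 and DKO and lower under IFNAR, for a mean log2 difference of 0.88 ± 1.15. The HSC library labelled IFNAR thus held the lowest HSC level of Insig1 and the highest of Abca1. Other SREBP targets did not follow Insig1 there: Hmgcs1 had its highest HSC level, 51.4 CPM, and Sqle was in between, at 62.8 CPM.

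The enzymes of synthesis gave another order. Hmgcs1, which makes HMG-CoA, was at 37.8, 20.5, 51.4 and 33.6 CPM in HSC and 91.8, 52.6, 66.6 and 38.7 CPM in MPP. It was the one of the 8 that was lower in HSC under all 4 labels, by a mean log2 difference of -0.80 ± 0.60, although the ranges overlapped. Sqle, the squalene epoxidase that is a slow step of the later pathway, was at 84.8, 61.0, 62.8 and 92.7 CPM in HSC and 78.7, 110, 42.4 and 65.3 CPM in MPP, with a mean log2 difference of 0.08 ± 0.65. These 2 target genes of SREBP were thus neither high nor low together in HSC. The predicted gene Gm48342 overlaps Hmgcs1 on the other strand, but it had 0 counts in 6 libraries and 2 and 4 counts in the MPP libraries labelled WT and DKO.

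**Figure D2:**
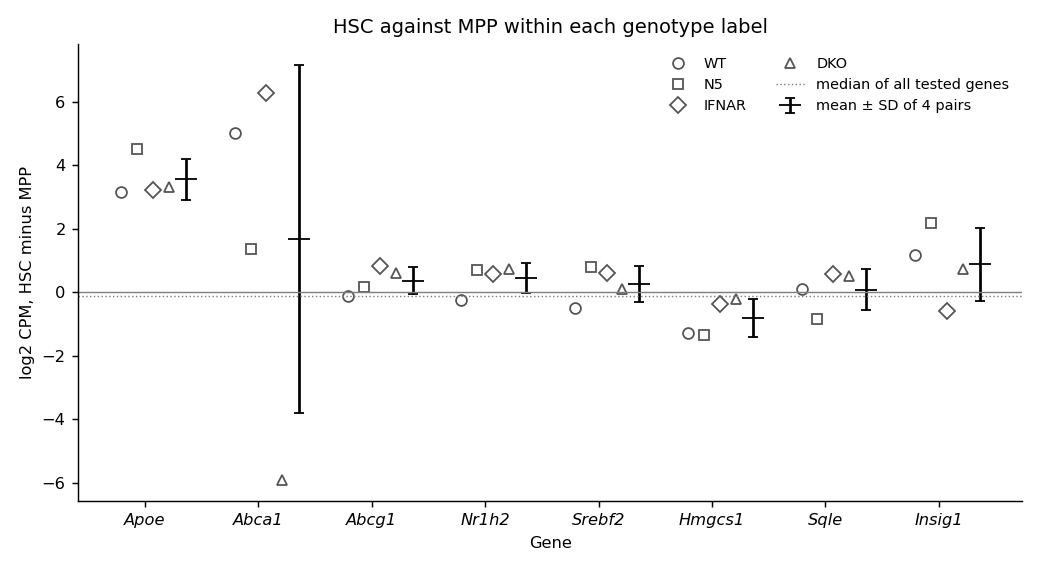
Difference in log2 CPM between the HSC and MPP libraries of the same genotype label for each gene (vertical axis; 1 symbol per label), with the mean ± SD of the 4 pairs beside them; the dotted line is the median of all 12132 tested genes, -0.12. Apoe lies between 3.15 and 4.53 in all 4 pairs, Hmgcs1 is below 0 in all 4, and Abca1 runs from -5.92 to 6.28.

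Spread between libraries depended on the level of a gene, which bears on how the 8 can be read. Over tested genes with a mean from 10 to 50 CPM the median SD of log2 CPM was 1.14 among HSC libraries and 0.78 among MPP libraries. For genes from 100 to 500 CPM it was 0.39 and 0.30. For the 225 genes of at least 500 CPM, which include Apoe with a mean of 674 CPM, it was 0.18 and 0.15. Apoe had an SD of 0.10 among HSC and 0.57 among MPP libraries, and Insig1, whose mean over 8 libraries was 40.7 CPM, had 0.98 and 0.47. By the size of its log2 difference between HSC and MPP, in either direction, Apoe ranked 869 of 12132 tested genes, a place given as a description.

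Compared with each other per kilobase of exon (lengths from GENCODE on GRCm38), the 8 genes kept their extremes in every library. Apoe was first and Abca1 last in 8 of 8 libraries. In HSC the mean level of Apoe was 579 ± 41.0 CPM per kb, followed by Nr1h2 at 34.2 ± 6.92, Srebf2 at 29.0 ± 12.1 and Abcg1 at 25.4 ± 3.07 CPM per kb. The next means were Insig1 at 17.7 ± 9.71, Sqle at 13.6 ± 2.86, Hmgcs1 at 7.80 ± 2.77 and Abca1 at 1.15 ± 1.52 CPM per kb. The order of Nr1h2, Srebf2, Abcg1 and Insig1 changed between libraries, but Nr1h2 lay above Abcg1 in every library. They were at 39.7 and 27.0 CPM per kb in HSC labelled N5, and at 24.4 and 23.9 in MPP labelled N5. In the HSC library labelled WT Insig1 came next after Apoe, at 27.0 CPM per kb. In MPP, Apoe at 51.7 ± 16.5 CPM per kb was much nearer to Nr1h2 at 24.9 ± 3.59 and Srebf2 at 22.8 ± 2.15 CPM per kb. In the MPP library labelled N5 the lead nearly closed, with Apoe at 27.0 and Srebf2 at 25.6 CPM per kb.

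Markers of other cell types were set beside Apoe. Macrophages are a known source of apolipoprotein E, and a list of 12 macrophage markers summed to 68.9, 12.2, 13.5 and 28.6 CPM in HSC and to 123, 71.6, 153 and 98.9 CPM in MPP. Its sum was higher in MPP, and the part of macrophages in the Apoe difference between the gates was not tested. Of the 12, Marco, Cd5l, Timd4 and Fcgr1 were at 0 counts in all 8 libraries, and Adgre1 and C1qa at 0 in all 4 HSC libraries. The other 6 had counts in HSC: Cd68 reached 46.9 CPM, Cd163 14.9 CPM, Mertk 13.7 CPM, C1qb 10.1 CPM, C1qc 7.07 CPM and Csf1r 0.0290 CPM. Within MPP, the library labelled N5 had the lowest macrophage sum and the lowest Apoe. Single markers were not all lowest there: Csf1r was at 0.737 CPM against 38.6 to 73.5 CPM in the other 3, but C1qb was at 13.3 CPM against 0 to 8.11 CPM. The part of these cells in the Apoe level of that library was not tested.

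Other cell types were followed with the same kind of list. Megakaryocyte markers, 5 genes, summed to 219 to 441 CPM in HSC and 45.6 to 164 CPM in MPP. Their sum thus moved with Apoe between the gates. Itga2b was its largest part, at 120 to 265 CPM in HSC and 26.1 to 150 CPM in MPP. Pf4 and Gp9 were higher in every HSC library than in any MPP library. Gp1bb was at 0.0255 to 14.3 CPM in HSC and 0 in MPP. Ppbp did not follow, at 21.5, 0, 0 and 0 CPM in HSC and 2.61, 2.91, 0 and 3.54 CPM in MPP. The part of megakaryocytes in the Apoe level was not tested. Of 6 stromal markers, Lepr, Col1a1 and Pdgfra were at 0 in all libraries, and the list summed to 0 to 20.2 CPM in HSC and 55.7 to 71.2 CPM in MPP, where Pdgfrb held all of it. The adipocyte markers Adipoq and Plin1 were at 0 throughout, and Lpl was at 0 to 18.1 CPM in HSC and 0 in MPP. Endothelial markers summed to 46.7 to 125 CPM in HSC and 126 to 239 CPM in MPP, with Cdh5 at 0 in all 8, and erythroid markers to 80.0 to 221 CPM and 95.8 to 344 CPM.

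The wider pathway was described with 6 lists, which hold the 8 genes and 54 others, 42 of which passed the filter. Of these 42 other genes, 16 had a higher mean log2 level in HSC and 26 a lower one, with a median log2 difference of -0.16, beside -0.12 over all tested genes. The efflux and lipoprotein list, 4 measured of 9, had 3 higher and 1 lower and a median of 1.03, and the 3 were Apoe, Abca1 and Abcg1. Its other measured gene, the transporter Abca7, was at 97.0, 71.6, 126 and 16.0 CPM in HSC and 85.5, 72.6, 44.2 and 54.8 CPM in MPP. Apoc1, the apolipoprotein gene beside Apoe, had 0 counts in all 8 libraries.

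Genes of synthesis split much as all tested genes did. Of 18 measured of 20 in the list, 8 were higher in HSC and 10 lower, beside 5258 higher and 6874 lower of all 12132. Their median log2 difference was -0.21, and 0.03 with the HSC or the MPP library labelled DKO left out. Mvk, mevalonate kinase, was at 6.81, 16.3, 42.4 and 0 CPM in HSC and 31.8, 17.8, 20.5 and 6.60 CPM in MPP, and Mvd, which makes the isoprene unit, at 14.9, 18.2, 53.7 and 26.5 CPM and 0.199, 52.2, 53.2 and 18.4 CPM.

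The control genes were mixed. Of the SREBP list, 7 measured of 7, 3 were higher in HSC and 4 lower, with a median of -0.03. Srebf1, which encodes the SREBP most tied to fatty acid synthesis, was at 161, 204, 233 and 199 CPM in HSC and 77.0, 179, 107 and 71.9 CPM in MPP, higher in HSC under 4 of 4 labels. Scap, the escort of SREBP, was at 82.9, 8.22, 193 and 138 CPM in HSC and 75.3, 86.3, 60.2 and 62.5 CPM in MPP. Of the LXR list, 4 measured of 5, 2 were higher and 2 lower, with a median of -0.29. Rxra, a partner of LXR, was at 18.6, 0, 24.8 and 31.5 CPM in HSC and at 2.08 CPM in the MPP library labelled WT and 0 in the other 3, whereas its relative Rxrb was at 31.5, 10.6, 14.7 and 43.9 CPM in HSC and 56.2, 35.9, 31.4 and 58.0 CPM in MPP. Mylip, a target gene of LXR, was at 20.6, 27.5, 6.85 and 0 CPM in HSC and 23.4, 22.1, 19.9 and 9.94 CPM in MPP.

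On the uptake side, 8 measured of 10 held 3 genes higher in HSC and 5 lower, with a median of -0.26. Vldlr, a receptor that binds apolipoprotein E, was at 7.91, 0, 57.1 and 44.8 CPM in HSC and 46.6, 61.8, 67.7 and 125 CPM in MPP, lower in HSC under 4 of 4 labels. Npc1, which exports cholesterol from lysosomes, ran from 4.72 to 33.9 CPM in HSC and from 5.58 to 39.8 CPM in MPP.

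The storage, transfer and oxysterol list, 9 measured of 11, had 4 higher, 5 lower and a median of -0.13. Soat1, which esterifies cholesterol for storage, ran from 21.4 to 66.9 CPM in HSC and from 40.3 to 103 CPM in MPP. The oxysterol enzymes were patchy. Cyp27a1 was at 58.2 CPM in the HSC library labelled IFNAR and at 0 counts in the other 3, and Cyp7b1 was at 0 counts in the HSC library labelled WT and in the MPP libraries labelled IFNAR and DKO. Medians of the lists are descriptions, and none of them was tested.

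**Figure D3:**
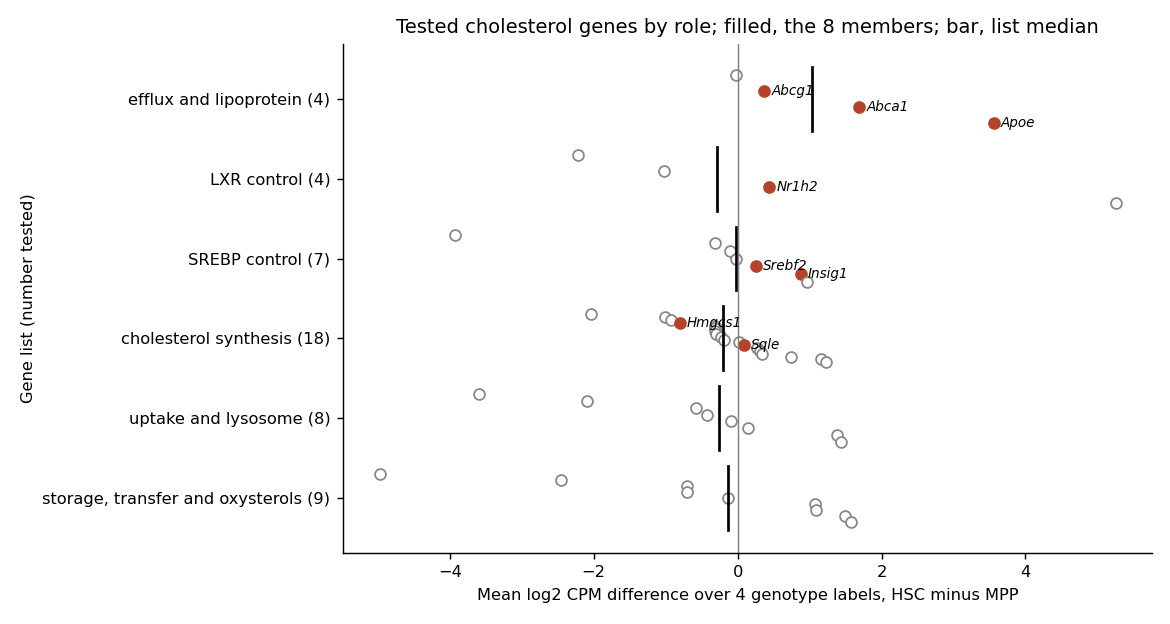
Mean difference in log2 CPM between HSC and MPP over the 4 genotype labels (horizontal axis) for each tested gene of the 6 cholesterol lists (rows, with the number tested); filled points are the 8 genes followed here, open points the other list genes, and black bars list medians. Apoe is at 3.56, the list medians run from -0.29 to 1.03, and the open points lie on both sides of 0 in 5 of the 6 lists.

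Genes whose levels ran most like those of each of the 8 were found from centred log2 CPM over the 8 libraries, by the root mean square distance to the gene in question among protein-coding genes of at least 10 CPM. Nearest to Apoe was Hacd4, an enzyme of very long chain fatty acid elongation, at a distance of 0.37 and at 177 ± 46.2 CPM in HSC and 19.2 ± 8.52 CPM in MPP. Next came the Toll-like receptor adaptor Tirap at 0.52, the adhesion molecule Esam at 0.55, Bex4 at 0.55 and the caveolar coat gene Cavin1 at 0.59. For Abcg1 the nearest were Ergic3, Mat2a and Gyg at 0.08 to 0.11, for Nr1h2 Elob, Tspan3 and Card19 at 0.16 to 0.18, and for Srebf2 Riox2, Spsb3 and Ilk at 0.17 to 0.20. Hmgcs1 had Rap1a, Rabif and Impdh1 at 0.19 to 0.27, Sqle had Dcaf8, Ergic1 and Ttc7 at 0.19 to 0.20, and Insig1 had Bicd1, Tmem35b and Zfp219 at 0.30 to 0.35. Abca1 had no near neighbour, with Fbxw8, Gab1 and Fam114a1 at 1.49 to 1.70. None of the 8 was among the nearest of another, and all of these distances share the same 8 libraries.

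Whether the labelled loss of Nfat5 altered these genes was tested over all 8 libraries with cell type and the receptor label in the model, since the genes had not been chosen on it. Of the 8, edgeR called 0 as higher and 0 as lower (adjusted p = 1 for each), and over the whole table it called 0 of 12132 genes (0%), with 338 at an unadjusted p under 0.05. DESeq2 called 166 genes, limma-voom 0 and the bias-adjusted form of edgeR's test 0, and none of the 8 was among the calls of DESeq2.

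Hmgcs1 was the most even of the 8 in this comparison. It was 20.5 against 37.8 CPM in HSC labelled N5 and WT, 33.6 against 51.4 CPM in HSC labelled DKO and IFNAR, and in MPP 52.6 against 91.8 and 38.7 against 66.6 CPM. All 4 pairs were lower in the library labelled as Nfat5-deleted, with log2 differences of -0.88, -0.61, -0.80 and -0.78. Over 4 libraries each, the means were 36.4 ± 13.3 and 61.9 ± 23.1 CPM. The fitted log2 fold change was -0.76 ± 0.36 (SE; edgeR unadjusted p = 0.0785, adjusted p = 1), so the difference did not pass the test. It was lower in 4 of 4 pairs in 1 of the 8 genes, and in 5.35% of all tested genes. Under the other settings its adjusted p ran from 0.295 with DESeq2 to 1.

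Abcg1 was the 1 of 8 that was higher in 4 of 4 pairs, against 5.79% of all tested genes. Its log2 differences were 0.37 and 0.09 in HSC and 0.07 and 0.30 in MPP, and the fitted log2 fold change was 0.19 ± 0.19 (SE; edgeR adjusted p = 1). The pairs of the other 6 genes went both ways. Apoe gave 0.22 and 0.12 in HSC and -1.16 and -0.000893 in MPP, the low value being that of the MPP library labelled N5. With that library left out, the fitted log2 fold change of Apoe went from -0.17 ± 0.26 to 0.10. Abca1 ran from -9.24 to 6.30 between pairs, with a fitted value of 2.73 ± 4.36, and Srebf2 from -0.50 to 1.41, with 0.24 ± 0.31. The fitted values were 0.33 ± 0.32 for Sqle, -0.11 ± 0.56 for Insig1 and -0.03 ± 0.25 for Nr1h2.

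Among the other genes of the lists, Insig2, the second brake on SREBP, was uneven within HSC. It had 0 counts in the HSC libraries labelled WT and IFNAR, where 3 counts would be 0.0869 and 0.0766 CPM, and 1401 and 2064 counts, or 45.7 and 43.6 CPM, in those labelled N5 and DKO. In MPP it was at 8.07, 54.8, 33.6 and 22.8 CPM. The effect of the Nfat5 label on Insig2 differed between HSC and MPP at an unadjusted p of 0.00452, which did not pass adjustment over all genes (edgeR adjusted p = 1). Over the 50 measured genes of the lists, 30 were higher with the label and 20 lower, with a median of 0.11 beside 0.03 over all tested genes, and edgeR called 0.

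The labelled loss of the interferon receptor was tested in the same way. edgeR called 0 of the 8 genes (adjusted p = 1 for each) and 0 of 12132 in all (0%), with 398 at an unadjusted p under 0.05. DESeq2 called 233 genes, limma-voom 1 and the bias-adjusted test 1, none of them among the 8. Of the 8 genes, 0 were lower in 4 of 4 pairs, against 6.16% of all, and 0 were higher in 4 of 4, against 5.9%.

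Insig1 and Sqle had the fitted values furthest below 0 in this comparison. Insig1 gave log2 differences of -2.14 and -0.85 in HSC and -0.36 and 0.58 in MPP, and its fitted log2 fold change was -0.67 ± 0.57 (SE). Sqle gave -0.43 and 0.60 in HSC and -0.89 and -0.75 in MPP, and its fitted value was -0.39 ± 0.32. Hmgcs1 was higher in both HSC pairs, at 0.44 and 0.71, and lower in both MPP pairs, at -0.46 and -0.44, which left a fitted 0.06 ± 0.37. The fitted values of the other 5 were 1.85 ± 3.27 for Abca1, 0.23 ± 0.26 for Apoe, -0.02 ± 0.25 for Nr1h2, -0.15 ± 0.31 for Srebf2 and -0.17 ± 0.19 for Abcg1. Over the 50 measured list genes, 23 were higher and 27 lower, with a median of -0.06 beside -0.01 over all tested genes.

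**Figure D4:**
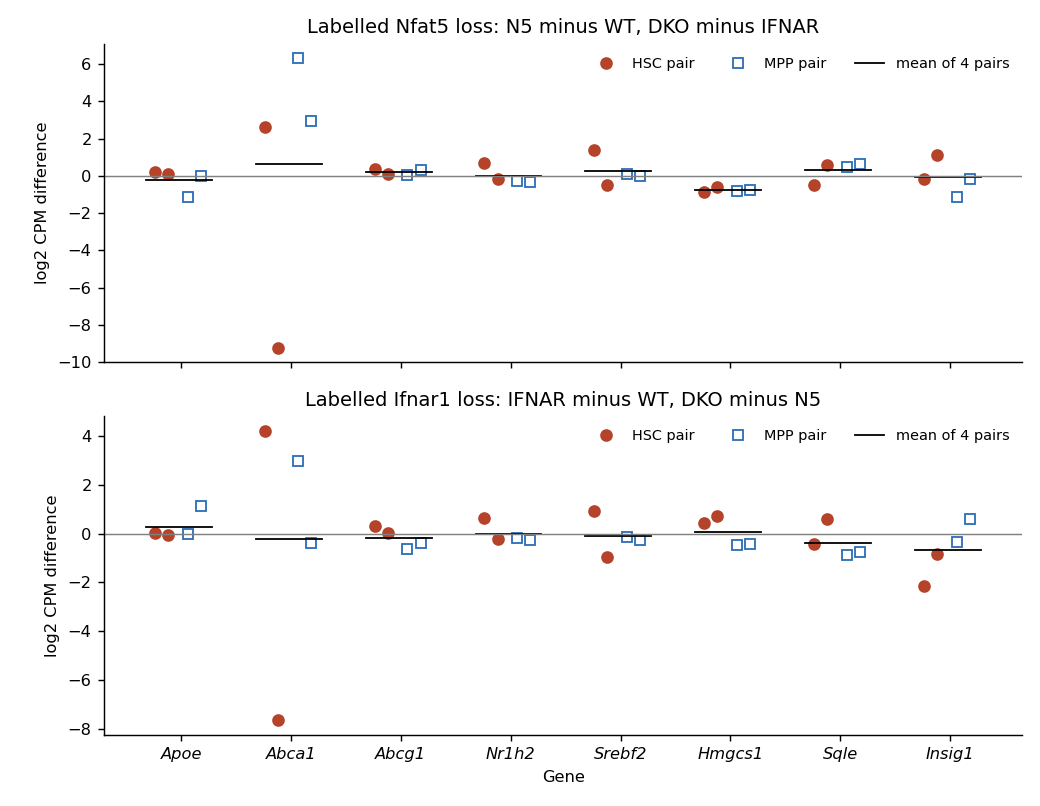
Differences in log2 CPM between libraries of the same cell type (vertical axes), for the labelled loss of Nfat5 (upper panel) and of Ifnar1 (lower panel); filled circles are HSC pairs, open squares MPP pairs and black lines means of 4 pairs. All 4 Hmgcs1 points lie between -0.88 and -0.61 for Nfat5, and Abca1 spreads from -9.24 to 6.30.

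Whether an effect of either label differed between HSC and MPP, or whether the effect of one label depended on the other, was tested with 3 interaction terms. edgeR called 0 genes for each, with 536, 585 and 404 at an unadjusted p under 0.05, and DESeq2 called 585, 607 and 393 genes. Among the 8, the smallest unadjusted p was 0.0568, for Abcg1 and the difference between cell types in the effect of the receptor label (log2 0.69 ± 0.28, SE; edgeR adjusted p = 0.999). Its log2 differences were 0.31 and 0.04 in HSC and -0.63 and -0.40 in MPP. The Hmgcs1 term of the same kind was 1.03 ± 0.66 (edgeR unadjusted p = 0.176, adjusted p = 1). For Apoe, the 3 terms were 0.70 ± 0.47, -0.50 ± 0.52 and 0.46 ± 0.53 (edgeR adjusted p = 1 for each).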

How the data were processed

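Libraries were made from polyadenylated RNA with the Smart-Seq2 protocol, which amplifies full-length cDNA by PCR without molecular identifiers and without marking strand. Per the submitters' processing notes, STAR 2.7.8a and RSEM 1.3.0 were used on GRCm39. The authors deposited whole-number counts per gene, not normalized; the annotation release, filters and strand setting were "not given in the sources used here". Reads of overlapping, antisense or near-identical genes could therefore be shared. Columns were matched to samples by name.

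Counts were scaled with TMM and tested with edgeR 4.0.16 (glmQLFit and glmQLFTest, older quasi-likelihood method) in R 4.3.3, after filterByExpr by cell type, with Benjamini-Hochberg adjustment over 12132 genes at 0.05. The tested genes held 99.5% of counts. HSC and MPP were compared with genotype label as a block, and the Nfat5 and Ifnar1 labels with cell type and each other as terms. Log2 CPM used a prior count of 2, and an SE was the fold change over the root of edgeR's F. Detection floors were 3 counts per library and cover counting error only. Alternatives were DESeq2 1.42.0, limma-voom (limma 3.58.1), DESeq2's size factors, other filters, the bias-adjusted test, single-term models, prior counts of 0.5 and 5, and each library left out. The tests were tried first on simulated counts.

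The 8 genes, the gene and marker lists and the rules were chosen with earlier results of these data known. Named genes were the 8, then Srebf1, Scap, Insig2, Nr1h3, Rxra, Mylip, Apoc1, Npc1 and Soat1, the 2 others of each list with the largest difference between HSC and MPP at a mean of at least 10 CPM, and the 3 nearest profiles of each gene (5 for Apoe), leaving out predicted, ribosomal protein and Y-linked genes and pseudogenes; markers were named after their values were seen. A few list genes covered by this rule were left out of the text.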

Additional observations from a re-analysis of the deposited data

Results flagged for a closer look

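In 6 of 48 groups of 4 libraries (24 named genes in 2 cell types), 1 library stood far from the other 3 by Dixon's criterion. For continuous values chance meets it in about 1 of 20 groups. That rate does not apply here, because a group with 3 libraries at 0 and 1 above meets the criterion by construction. This holds for Nr1h3 in both gates, Rxra in MPP and Cyp27a1 in HSC. Apoe was at 57.7 CPM in the MPP library labelled N5 and at 127 to 129 CPM in the other 3. The LXR pair gave lone libraries as well: Nr1h3 was at 20.5 CPM in the HSC library labelled N5 and 10.9 CPM in the MPP library labelled IFNAR, with 0 in the other 3 of each gate, and Rxra was at 2.08 CPM in the MPP library labelled WT, with 0 in the other 3. Cyp27a1, an oxysterol enzyme gene, was at 58.2 CPM in the HSC library labelled IFNAR, with 0 in the other 3, and at 35.2 CPM in the MPP library labelled N5, against 4.13 to 8.37 CPM. The MPP library labelled N5 was thus the lone one for both Apoe and Cyp27a1. No cause was tested for any of these values.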

How the results depend on the processing

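The HSC against MPP differences of the 8 genes moved by less than their spread under every setting run: Apoe ran from 3.23 to 3.69 and Abca1 from 0.15 to 4.22 on the log2 scale, and Sqle alone changed sign, from -0.083 to 0.39. Counts of genes called depended on the test. For HSC against MPP the count of 2 became 23 with a filter of 10 CPM in 4 libraries, 156 with limma-voom, 107 with the bias-adjusted test, 207 without the genotype block and 1877 with DESeq2, and was 0 to 0 with each library left out in turn. With DESeq2 the counts of 0 became 166 (Nfat5), 233 (Ifnar1), and 585, 607 and 393 (interactions), and limma-voom and the bias-adjusted test each called 1 for Ifnar1. None of the genotype fold changes of the 8 passed the threshold under any setting, but 35 of 238 changed sign. For Nfat5, limma-voom gave 0.11 for Apoe, 0.012 for Nr1h2 and 0.074 for Insig1, the model of that label alone gave 0.12 for Apoe, -0.93 for Abca1 and 0.0092 for Nr1h2, and the bias-adjusted test -1.22 for Abca1. For Ifnar1, limma-voom gave -0.78 for Abca1, 0.049 for Nr1h2 and -0.069 for Hmgcs1, the bias-adjusted test 0.0043 for Nr1h2 and -0.023 for Hmgcs1, and the single-label model 0.011 and -0.091 for these. With 1 library left out, Nfat5 values ran from -0.36 to 0.10 for Apoe, -0.14 to 5.22 for Abca1, -0.25 to 0.10 for Nr1h2, -0.046 to 0.47 for Srebf2 and -0.54 to 0.31 for Insig1. Ifnar1 values ran from -0.033 to 0.43 for Apoe, -1.13 to 4.04 for Abca1, -0.23 to 0.11 for Nr1h2, -0.43 to 0.14 for Srebf2 and -0.11 to 0.21 for Hmgcs1. Of 360 list medians under other settings, 308 moved by less than the spread and 52 by more. The cause of these changes was not tested. Pairing by genotype label was already part of the HSC against MPP model, and the labels give no replicate numbers. Abca1 had the fewest counts of the 8, with 0 to 1343 per library. Its counts did not follow depth: the deepest library, HSC labelled DKO with 47205950 counts, had 0.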
